A study of Mus musculus with 2 samples.

Results

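Paneth and goblet cells are the secretory cells of the intestinal lining, and 6 genes that encode their secreted products or a processing enzyme were followed here in the jejunum, the part of the small intestine between duodenum and ileum: Lyz1, Mmp7, Itln1, Defa5, Spink4 and Guca2a. They were taken by gene symbol, older symbols included, from the authors' deposited table that compares the diets, and they are 6 of the 1559 genes named in it. All samples were total RNA of C57BL/6J males that had reached 10 weeks of age and had eaten their diet for 4 weeks, either a regular AIN76 chow (control, the chow array below) or a diet with 20% glucose (high-glucose, the glucose array below). Each diet was measured on 1 array, and the sources used here do not give how many animals an array stands for. A difference between the diets therefore has no replicate error and no test, and the diet cannot be told apart from variation between animals or hybridisations.

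Paneth cells lie at the base of the crypts and release granules of antimicrobial proteins into the crypt. Among these are lysozyme, which cuts the peptidoglycan of bacterial walls, and the alpha-defensins, short cysteine-rich peptides that damage bacterial membranes. In the mouse intestine alpha-defensins are made as inactive precursors and are cut to their active form by the metalloproteinase Mmp7. Goblet cells release mucus and small peptides, and guanylin, the product of Guca2a, acts on the receptor guanylate cyclase C of neighbouring cells and so drives chloride and water into the gut. In RNA of whole tissue, fewer cells of a type and less RNA per cell cannot be told apart.

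The promoters of the genes are shown because all 6 were listed in the same direction, but a shared control of these genes was not tested. RefSeq promoters of GRCm38.p6 were at hand for 4 of the 6 genes, Lyz1, Mmp7, Itln1 and Guca2a, and run from 250 bases before to 50 bases after a transcription start. Capitals mark matches on either strand to the letters searched for. The TATA box, near which the general transcription machinery assembles, was spelled TATAAA. The core of sites for TCF/LEF, the factors through which Wnt signals act in crypts, was spelled CTTTGA. For the intestinal CDX factors the letters were TTTATG, and for the GATA factors of the upper intestine they were GATAAG. The windows lie at chr10:117292819-117293118 on the minus strand for Lyz1, at chr9:7691840-7692139 on the plus strand for the first of the start sites given for Mmp7, at chr1:171535245-171535544 on the minus strand for Itln1 and at chr4:119637482-119637781 on the plus strand for Guca2a.
Lyz1: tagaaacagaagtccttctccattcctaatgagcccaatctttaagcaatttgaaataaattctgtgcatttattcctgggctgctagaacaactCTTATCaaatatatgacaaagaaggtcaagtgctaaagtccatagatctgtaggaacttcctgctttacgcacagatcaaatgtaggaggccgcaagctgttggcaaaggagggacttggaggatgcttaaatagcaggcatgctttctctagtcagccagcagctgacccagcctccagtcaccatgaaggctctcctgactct
Mmp7: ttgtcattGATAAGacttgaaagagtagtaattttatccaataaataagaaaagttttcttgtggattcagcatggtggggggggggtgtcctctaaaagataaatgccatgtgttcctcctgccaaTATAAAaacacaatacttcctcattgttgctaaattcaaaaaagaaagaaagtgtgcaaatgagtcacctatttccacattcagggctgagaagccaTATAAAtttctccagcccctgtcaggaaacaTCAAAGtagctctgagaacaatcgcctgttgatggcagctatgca
Itln1: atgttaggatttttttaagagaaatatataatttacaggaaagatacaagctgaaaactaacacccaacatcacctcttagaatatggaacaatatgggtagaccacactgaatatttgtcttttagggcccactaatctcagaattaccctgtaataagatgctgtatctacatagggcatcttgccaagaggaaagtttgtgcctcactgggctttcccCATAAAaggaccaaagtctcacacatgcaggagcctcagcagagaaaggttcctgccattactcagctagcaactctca
Guca2a: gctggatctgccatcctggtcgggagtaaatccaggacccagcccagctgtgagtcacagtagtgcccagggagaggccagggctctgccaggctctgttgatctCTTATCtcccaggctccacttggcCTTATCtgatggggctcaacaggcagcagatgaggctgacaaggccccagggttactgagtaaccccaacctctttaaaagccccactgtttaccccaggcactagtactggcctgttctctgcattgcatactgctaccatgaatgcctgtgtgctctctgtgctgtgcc

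None (0) of the motifs searched was shared by all 4 windows. Among 32544 promoter windows of this length, 13.6% held TATAAA, 16.0% CTTTGA, 11.9% TTTATG and 7.3% GATAAG, counting both strands. The first Mmp7 window held TATAAA at 123 and at 26 bases before the start, CTTTGA on the opposite strand from base 6 after it, and GATAAG 242 bases before it. GATAAG was also found on the opposite strand 155 bases before the start of Lyz1 and at 145 and 121 bases before that of Guca2a. The Itln1 window held TTTATG on the opposite strand 29 bases before the start. G and C made up 44.3% of the Lyz1 window, 39.0% of the Mmp7 window, 40.3% of the Itln1 window and 56.3% of the Guca2a window, against a median of 53.0% over all windows. Such matches describe letters only.

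The tissue label and the link between both deposited sources were checked first, since every signal given here depends on them. Genes known mainly from liver were among the brightest of the table. Both listed genes of 16 on the hepatocyte list, Serpina1a (5068.6 on chow and 4065.3 on glucose) and Plg (3968.3 and 1994.0), lay above the 90th percentile. So did Pzp at 5551.2 and 3651.9, Cyp2c29 at 4597.0 and 2311.7 and Mbl2 at 2486.4 and 1277.6, which were picked after the values had been seen and are also known from liver. Enterocyte genes lay above the 90th percentile in 4 of 8 cases on each array, beside 18.2% (chow) and 17.8% (glucose) of all listed probe sets. These were Fabp2, the intestinal fatty acid binding protein (455.3 and 557.9), and Apoa1, Apob and Slc2a2, which are abundant in liver too. The glucose transporter Slc5a1 of the enterocyte brush border was low at 4.6 and 0.8, and Mep1a stood at 7.0 and 13.0. The other 2 were Anpep at 64.5 and 31.5 and Slc2a5 at 13.3 and 12.2. Of the 8 enterocyte genes, 6 reached the median of the chow array and 7 that of the glucose array. Among all listed probe sets, 68.7% (chow) and 67.6% (glucose) did so. Of the 8 listed Paneth cell genes 0, and of the 6 goblet cell genes at most 1, lay above the 90th percentile of an array.

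The signals and the authors' deposited table also differed. Among the 1452 listed probe sets for which the signals gave a sign, relative to a shift between the arrays explained below, that sign matched the authors' deposited table for 827 (57.0%). For probe sets at or above the median on both arrays it matched for 583 of 1010 (57.7%). Plg had 4.2 on the log2 scale in the authors' deposited table and -0.02 from its signals. Whether the deposited signals come from the arrays behind the table, or from jejunum without other tissue, was not tested, so the level of each gene below holds for the deposited signals only.

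In the authors' deposited table all 6 genes were listed higher on the high-glucose diet. The table gives each probe set a signal log ratio, called SLR from here on, which is a log2 value rounded to 0.1 and is positive where high-glucose exceeds control. The 6 values ran from 0.6 to 1.0 with a median of 0.85, which is 1.52-fold to 2.0-fold in the authors' deposited table. Of all 1625 probe sets in the authors' deposited table, 585 (36.0%) had an SLR above 0, and the median over all of them was -0.4. The sources used here do not give the rule by which the authors chose these probe sets, and the 6 genes could be followed only because they are in the table, so their direction has no independent weight.

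The lysozyme gene Lyz1 had the highest SLR of the 6 in the authors' deposited table, 1.0, which is a 2.0-fold higher value. Its probe set carries the older symbol Lzp-s there. In the RefSeq order Lyz1 lies beside Lyz2, the lysozyme gene of macrophages, which is close to it in sequence and is not named in the table, and whether the probe set separates the pair was not tested. Of the listed macrophage genes, the authors' deposited table gave Cd14, a receptor for bacterial lipopolysaccharide, an SLR of 1.0 and the complement gene C1qa -0.3.

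In the authors' deposited table the alpha-defensin Defa5 stands as Defcr5, at an SLR of 0.6. It belongs to a dense family, with 29 annotated genes in GRCm38.p6, so values of single defensin genes are uncertain. A further pair of Defcr symbols was noticed after the values had been seen, to which the authors' deposited table gives 1.0 (Defcr-rs10) and 0.7 (Defcr12). Neither symbol matched RefSeq. The Defcr12 probe set has the suffix x, which Affymetrix gives where some probes match other transcripts. These 3 Defcr probe sets spanned 0.6 to 1.0 in the authors' deposited table, the same span as the 6 genes. Defa5 belongs to both groups and sets the lower end of each. Defb11, a defensin symbol outside the Defcr names, stood at 2.2 in the authors' deposited table.

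Mmp7, the enzyme that activates the defensin precursors, had 0.8 as its SLR in the authors' deposited table, between the lysozyme and the defensin values. Itln1, listed as Itlna, encodes intelectin 1, a lectin whose human form binds sugars of microbial surfaces, for which the authors' deposited table gave an SLR of 0.9. Spink4, which encodes a small Kazal-type protein of the protease inhibitor family made by goblet cells, had the same value of 0.9 in the authors' deposited table. The guanylin gene Guca2a stood at 0.8 in the authors' deposited table. No error belongs to these values, so the order of the genes cannot be read from steps of 0.1.

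The 6 values were moderate for this list. In the authors' deposited table, 264 probe sets had an SLR above 1.0 and 107 had one above 0 but below 0.6, while 214 lay from 0.6 to 1.0. These 214 were 36.6% of all probe sets listed above 0, whose median was 1.0. At least 2-fold was reached by 1 of the 6 genes, Lyz1.

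**Figure D1:**
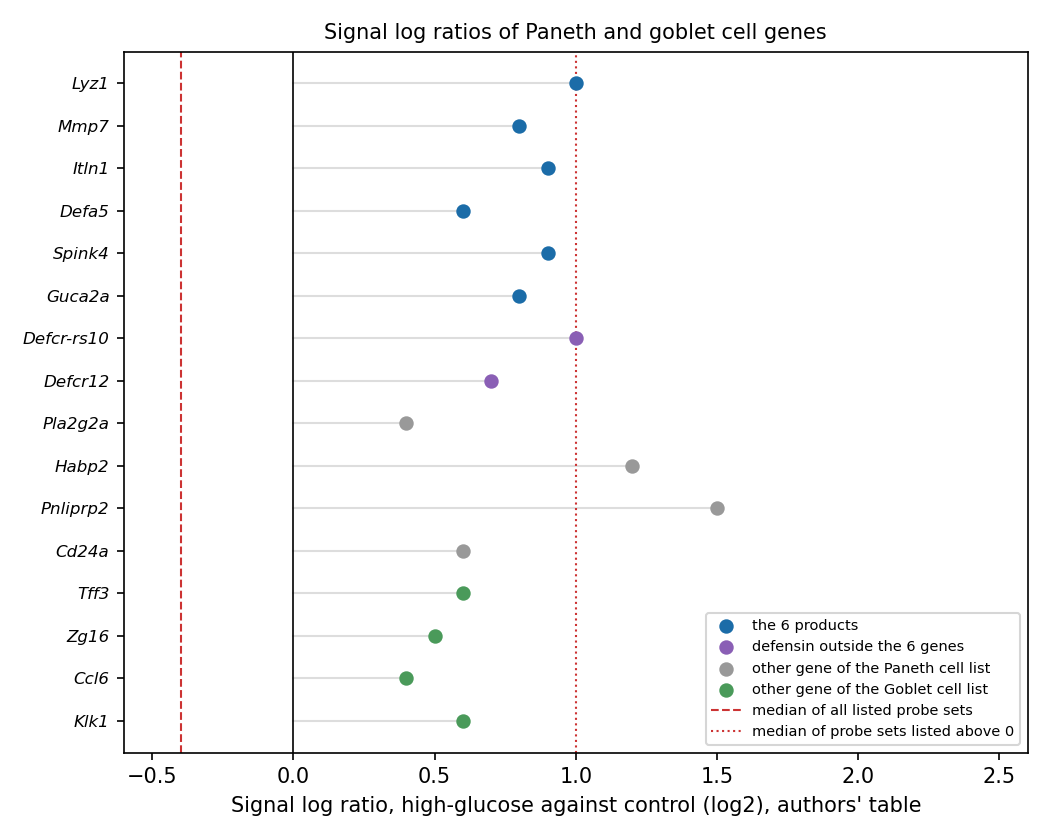
Signal log ratio (log2, high-glucose against control, from the authors' deposited table) of the 6 products in blue, of the other Defcr symbols in purple and of the other listed genes of the Paneth and goblet cell lists in grey and green, 1 point per probe set with no error. All points lie to the right of 0, those of the 6 products between 0.6 and 1.0, while the median of all listed probe sets (dashed line) is -0.4 and that of the probe sets listed above 0 (dotted line) is 1.0.

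The signals of the same probe sets on the arrays were low. They are intensities on a linear scale with no detection call, so each was set against its own array: the median over 22626 probe sets that are not controls was 13.0 on the chow array and 7.9 on the glucose array, and the 25th percentile was 3.7 and 2.1. The 6 signals ran from 0.2 through a median of 2.05 to 5.4 on the chow array, and from 0.2 through 0.7 to 4.6 on the glucose array. On each array 0 of 6 reached the median. Among all listed probe sets, 68.7% reached the median on the chow array and 67.6% on the glucose array. Probe sets differ in affinity, so a low signal does not give the amount of a transcript or rank the genes by it.

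Lyz1 had a signal of 5.4 on the chow array and 4.6 on the glucose array, at the 31.4th and 36.2nd percentile. Defa5 had 4.3 on chow and 0.2 on glucose, the 27.1st and 1.4th percentile. These were the genes that reached the 25th percentile, 2 of 6 on the chow array and, without Defa5, 1 of 6 on the glucose array. Of all listed probe sets, 88.0% did so on the chow array and 87.1% on the glucose array.

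The other 4 genes lay under the 25th percentile on both arrays. Mmp7 had signals of 1.6 and 1.5 on the chow and glucose arrays, at the 16.9th and 21.4th percentile. Spink4 had 2.5 and 1.0, at the 20.6th and 16.5th percentile. Guca2a had 0.7 and 0.4, at the 8.9th and 6.4th percentile. Itln1 was the lowest of the 6 on the chow array, with 0.2 there and 0.3 on the glucose array, at the 0.9th and 3.7th percentile.

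The array's 3 probe sets for a bacterial tryptophan gene, which match no mouse transcript, gave a second mark of background. Their signals were 0.6, 5.6 and 0.2 on the chow array and 0.4, 0.3 and 0.3 on the glucose array. Against the highest of them, 0 of the 6 genes stood at or above 5.6 on the chow array and 4 of 6 stood at or above 0.4 on the glucose array, all but Itln1 and Defa5. The high bar on the chow array comes from a single probe set, and Lyz1 lay just under it at 5.4. The bar of 0.4 on the glucose array lay under that array's 10th percentile of 0.5, and Guca2a only equalled it. Passing this low bar therefore does not place a gene above background. The share of all listed probe sets that reached these bars was not counted, so neither count is a result about the 6 genes.

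**Figure D2:**
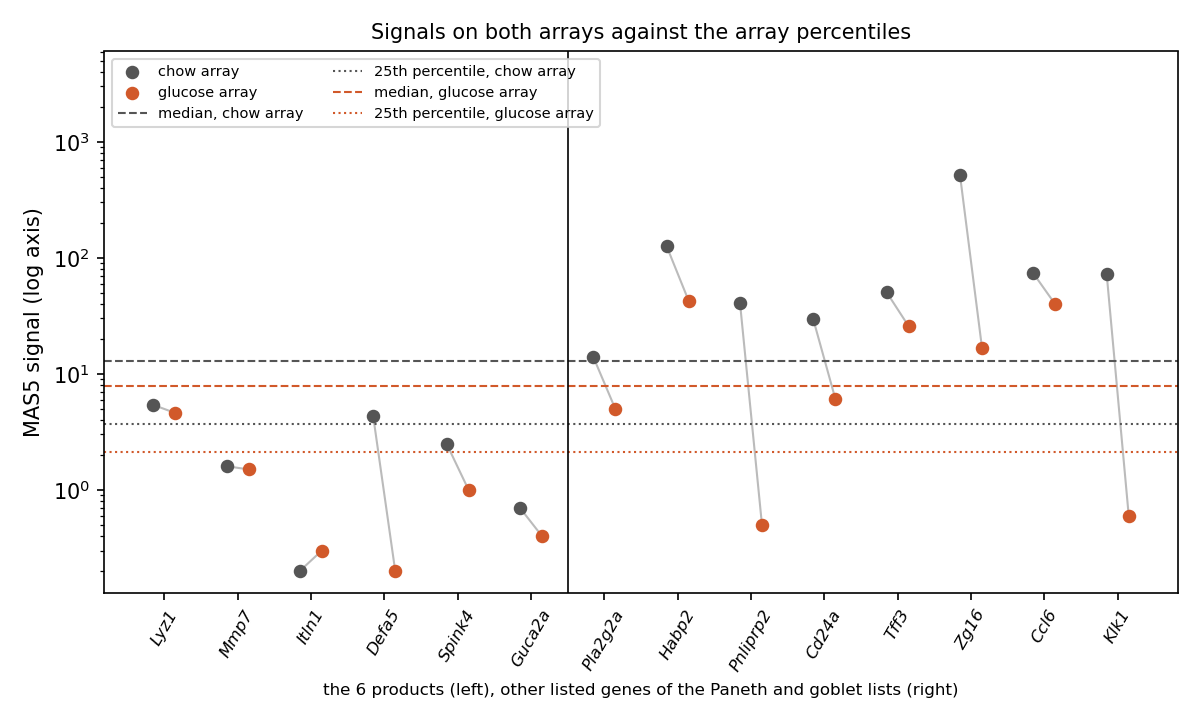
Signal on the chow array (grey) and the glucose array (orange) on a log axis, 1 array per diet, for the 6 products on the left and the other listed genes of the Paneth and goblet cell lists on the right, with the array medians dashed and the 25th percentiles dotted. All 6 products lie under the median of the chow array at 13.0 and that of the glucose array at 7.9, whereas all 8 genes on the right lie above the median on the chow array.

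The direction of the 6 genes could hardly be read from the signals. As deposited, 5 of 6 had a lower and 1 of 6, Itln1, a higher signal on the glucose array. The whole glucose array was lower, with a median log2 ratio of -0.97 (1.96-fold) over the probe sets in the upper part of the signal range. The share of all probe sets with a lower signal was not counted, so 5 of 6 is not a result about these genes. Ratios were taken relative to that shift, and signals under a floor of 2.9 were set to the floor. A ratio above 0 relative to the shift was then found for 1 gene, Lyz1, at 0.74 on the log2 scale. Its signals lay under the median of each array and, on chow, under the 5.6 of the bacterial probe set, so a change in the level of Lyz1 cannot be read from them. The sign also came from the shift, since the log2 ratio of Lyz1 as deposited was -0.23. For Defa5, whose high-glucose signal was under the floor, 0.40 is an upper bound and its sign is undetermined. The value fell below 0 with quantile normalization (-0.25), loess (-0.34), a floor at the 10th percentile (-1.75) or no floor (-3.46). Mmp7, Itln1, Spink4 and Guca2a were under the floor on both arrays and have no ratio. The SLR of these 4 in the authors' deposited table, 0.8 to 0.9, thus has no counterpart in the signals.

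The SLR of listed probe sets went with signal level. When the 1625 probe sets of the authors' deposited table were divided by the mean percentile of their signals, 120 of 201 (59.7%) under the 25th percentile had an SLR above 0, as did 168 of 341 (49.3%) from the 25th to the 50th, 88 of 429 (20.5%) from the 50th to the 75th and 209 of 654 (32.0%) above it. The median size of the SLR, sign ignored, was 1.4, 1.0, 0.6 and 0.5 in the same order in the authors' deposited table. Of the 6 genes, 5 lay under the 25th percentile and 1, Lyz1, between it and the 50th. Among the 111 probe sets of the authors' deposited table with both signals under the floor, 68 (61.3%) had an SLR above 0, with a median of 1.0, beside which Mmp7, Itln1, Spink4 and Guca2a stand at 0.8 to 0.9. The part of signal level in the values of the 6 genes was not tested.

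**Figure D3:**
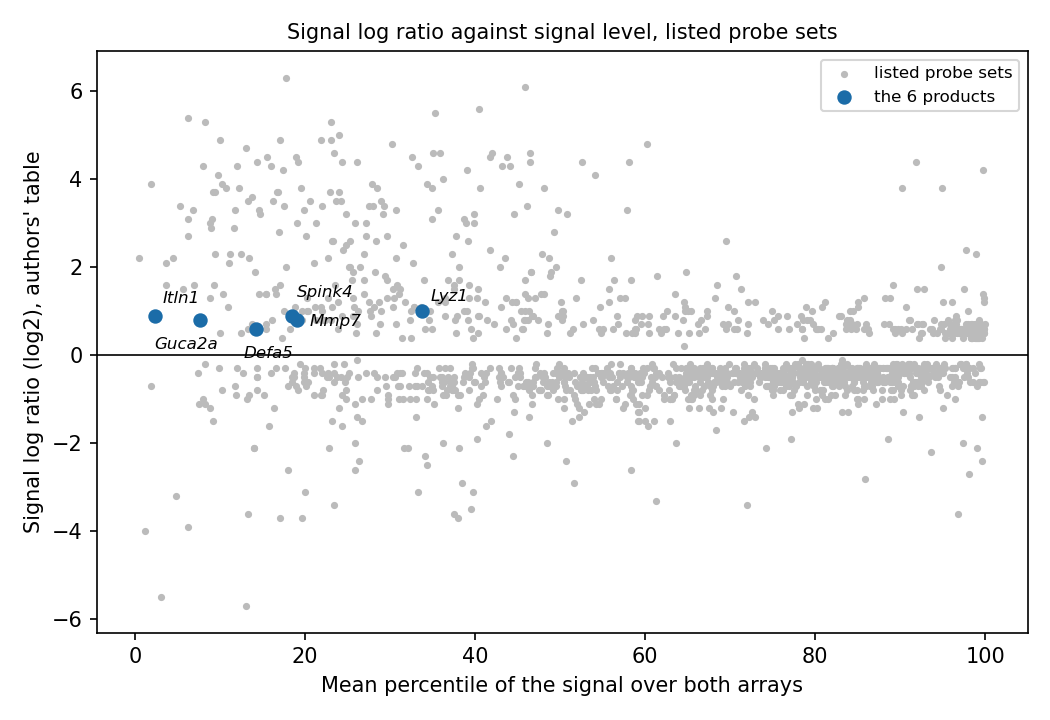
Signal log ratio (log2, from the authors' deposited table) against the mean percentile of the signal over both arrays for 1624 listed probe sets in grey and the 6 products in blue. The products lie in the left part of the plot, 5 of them under the 25th percentile, where 59.7% of the probe sets are listed above 0.

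The other listed genes of the Paneth and goblet cell lists had the same sign in the authors' deposited table, but for most of them the signals went the other way. Over the whole table the signals gave a sign for 483 probe sets with an SLR above 0, and 304 of these (62.9%) were above 0 relative to the shift. Of a list of 43 Paneth cell genes 8 were listed, and of 22 goblet cell genes 6, and these 14 include the 6 genes followed here. All 14 had an SLR above 0, with a median of 0.85 and 0.6, in the authors' deposited table. So did 585 (36.0%) of all its 1625 probe sets. Leaving out the 6 genes, the other 8 ran from 0.4 to 1.5 with a median of 0.6 in the authors' deposited table. Defcr-rs10 and Defcr12, whose symbols matched no RefSeq gene, are not counted among these 8. Defcr-rs10 had signals of 7.4 (chow) and 12.9 (glucose), which is 1.77 relative to the shift on the log2 scale, the same sign as its SLR. For Defcr12 the sign relative to the shift is undetermined. Muc2, the main mucin of goblet cells, and the Paneth cell genes Ang4 and Reg3g are not named in the table, which says nothing about how they changed.

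Among the other Paneth cell genes, Pnliprp2, a pancreatic lipase relative, had the highest SLR in the authors' deposited table, 1.5. Its signal went the other way, from 41.1 (chow) to 0.5 (glucose), which beyond the shift is at least 7.23-fold lower. For Habp2, a protease that is also abundant in liver, the authors' deposited table gave 1.2. Its signals were 126.1 and 42.7, a relative log2 ratio of -0.59. Cd24a, a surface protein of crypt cells, was given 0.6 in the authors' deposited table. Its signals were 29.4 and 6.1, which is -1.30 relative to the shift on the log2 scale. Pla2g2a, a phospholipase with antibacterial action that C57BL/6 mice carry in a disrupted form, was given 0.4 in the authors' deposited table. Its signals were 14.0 and 5.0, or -0.51 relative to the shift.

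Among the other goblet cell genes, Tff3, the trefoil peptide of mucus, was given 0.6 in the authors' deposited table, and its signals of 50.4 and 25.7 matched the shift. The chemokine gene Ccl6, at 0.4 in the authors' deposited table, had signals of 73.4 and 39.6, a relative log2 ratio of 0.08. Zg16, a lectin of secretory granules, stood at 0.5 in the authors' deposited table, whereas its signal was 514.3 (chow) and 16.7 (glucose), a relative log2 ratio of -3.97. Klk1, a kallikrein protease, also stood at 0.6 in the authors' deposited table, with signals of 71.8 and 0.6 that are, beyond the shift, at least 12.6-fold lower on glucose. All 8 of these other genes reached the array median on the chow array and 4 of 8 on the glucose array, and 6 of 8 had a relative log2 ratio of -0.5 or lower, as did 17.5% of the 1514 listed probe sets with a ratio or a bound. The probe sets of Zg16, Klk1 and Cd24a have the suffix x and that of Habp2 the suffix s, which mark probe sets shared between transcripts. Whether they separate these genes from others was not tested.

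Genes of the pancreas were also lower on the glucose array. Zg16 is also on the list of pancreatic acinar genes, and Klk1 and Pnliprp2 are made in the pancreas as well. The 6 listed of 17 acinar genes, Zg16 among them, had a summed signal of 4489.2 on the chow array and 109.9 on the glucose array. All 6 were lower relative to the shift, with relative log2 ratios from -4.83 to -3.97. Of the 1514 listed probe sets with a ratio or a bound, 17.5% had one of -0.5 or lower. The SLR of the 6 acinar genes was above 0 for 3 and below 0 for 3 in the authors' deposited table. The part of pancreatic RNA in the signals of Zg16, Klk1 and Pnliprp2 was not tested. The summed signal of the listed Paneth cell genes was 222.1 on chow and 60.9 on glucose, and that of the goblet cell genes 713.1 and 84.0, with no shift taken off. Habp2, at 126.1 and 42.7, made up most of the Paneth cell sum on both arrays, and Zg16 most of the goblet cell sum on the chow array. Pnliprp2 added 41.1 to the Paneth cell sum on chow but only 0.5 on glucose.

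Partners of the 6 genes were mostly not named in the authors' deposited table. Of 8 genes of the guanylin pathway 1 was listed, the cGMP-dependent kinase gene Prkg2 at -0.8 in the authors' deposited table, with signals of 5.6 and 1.1. The receptor gene Gucy2c and Guca2b, the neighbour and relative of Guca2a, are not named there. Of 18 factors that set the secretory lineage 2 were listed, both below 0, as were 1040 of all 1625 probe sets in the authors' deposited table. They were Gfi1, a repressor needed for Paneth and goblet cells, at -3.7 and the Wnt effector Tcf7l2 at -0.4 in the authors' deposited table. The Gfi1 signals were 0.5 and 2.8, under the floor on both arrays, and those of Tcf7l2 were 11.3 and 6.2. Of 28 genes of protein folding and export in the endoplasmic reticulum 6 were listed, 2 above 0 and 4 below, from 0.7 for Dnajc3 to -1.0 for the stress-induced Herpud1 in the authors' deposited table. The chaperone gene Calr stood at -0.3, Dnajb11 at -0.4, Ssr1 at -0.7 and the translocon gene Sec61g at 0.5 in the authors' deposited table.

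The other lists, of gut, pancreas and liver cells and of the partners just named, differed in sign. Of these 13 lists, 3 were listed wholly above 0 in the authors' deposited table, 4 wholly below and 6 both ways, but apart from smooth muscle the lists on 1 side held only 1 to 3 listed genes each. Smooth muscle, from the layer beneath the mucosa, was listed likewise, with 8 of 8 genes above 0 and a median SLR of 1.05 in the authors' deposited table, led by Tagln at 1.3. Its listed genes had low signals too, at a median percentile of 24.4 on the chow array and 36.2 on the glucose array, beside 18.7 and 11.4 for the 6 genes, and 5 of the 7 with a ratio or a bound were above 0 relative to the shift. Enterocyte genes were split, 4 above and 4 below 0, with the protease gene Mep1a at 0.9 and the fructose transporter Slc2a5 at -0.8 in the authors' deposited table. B cell genes lay below 0 in 9 of 10 cases at a median of -3.45 in the authors' deposited table, and their signals were also low, at a median percentile of 18.3 on chow and 13.5 on glucose. Relative to the shift 3 B cell genes were above 0 and 1 below, among them Cd79a at 1.59 against -1.6 in the authors' deposited table. A low signal thus stood beside SLR values of either sign. Whether the amount of muscle or lymphoid tissue in the samples differed was not tested.

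**Figure D4:**
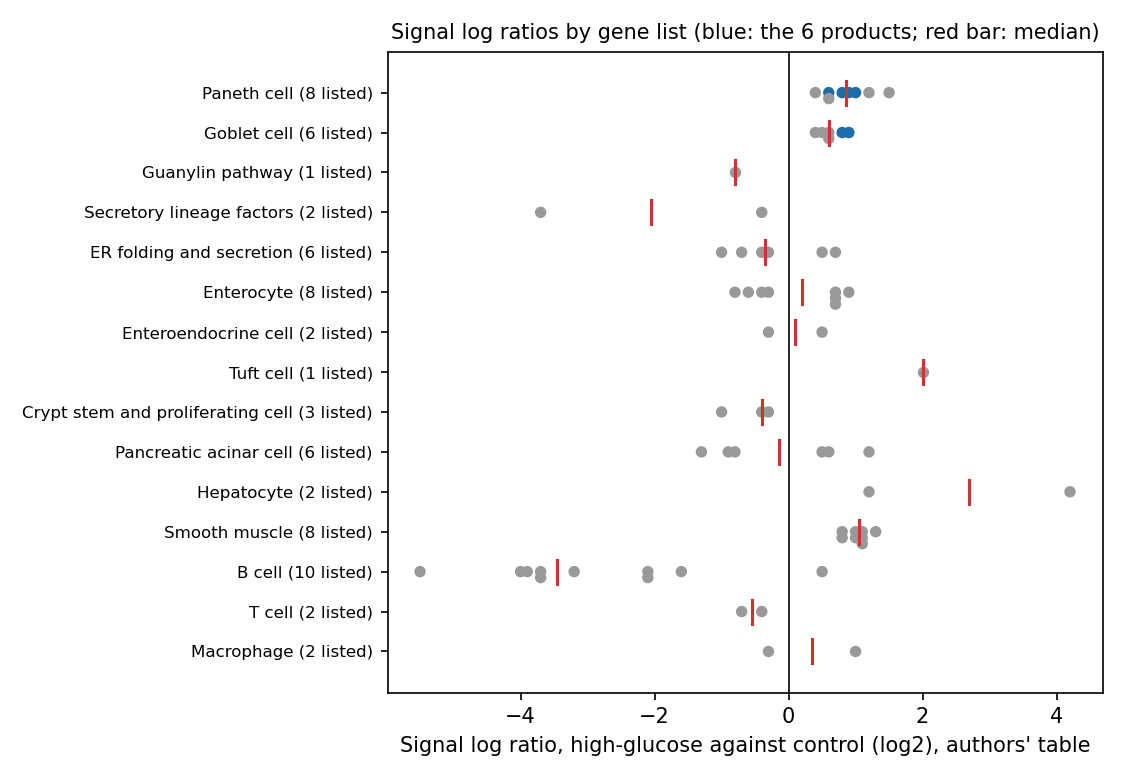
Signal log ratio (log2, from the authors' deposited table) of each listed gene by list, 1 point per gene, with the 6 products in blue and the median of each list as a red bar. Paneth cell, goblet cell and smooth muscle genes lie wholly to the right of 0, enterocyte genes on both sides and B cell genes, with 1 exception at 0.5, to the left.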

How the data were processed

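Values of both deposited kinds were used, from 1 array per diet. The signals are intensity values made by the authors with MAS5, which gives each of 22690 probe sets 1 linear value, per the submitters' processing notes; the sources used here give no version or scaling target. The authors' deposited table holds 1625 of them (7.16%) with a symbol and an SLR on the log2 scale, per the file headers; its fold column is the same value as a signed fold. Probe set IDs joined both. Of the symbols, 1314 were current in RefSeq of GRCm38.p6, 213 were updated by a synonym that points to 1 gene, 56 were kept and 42 probe sets had none. All 6 genes had 1 listed probe set each, and 3 of them stood under an older symbol. A further gene of the group is not reported here; its probe set counts only in totals over the table.

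Signals were set against percentiles of 22626 probe sets that are not controls. Ratios used a floor of 2.9, the mean of the 25th percentiles, and the median log2 ratio of the 11314 probe sets with a mean log2 signal at or above the median was taken off. Where 1 of the signals lay under the floor, the ratio is a bound. The procedure was run on 1 simulated array, with changes placed only in bright probe sets. Changes at signals as low as those of the 6 genes were not simulated, so the run does not bear on their ratios. Named genes were the 6 genes, all listed genes of the Paneth, goblet, guanylin, lineage factor and endoplasmic reticulum lists, and up to 3 genes with the largest SLR from each other list; Fabp2, which ties for the third enterocyte value, the other enterocyte genes of the tissue check, Cd79a, Pzp, Cyp2c29, Mbl2 and the further defensins were named after values had been seen. Members and lists were chosen with earlier results of these data known. No test was run, as there is 1 array per diet. Python 3.11.15, pandas 2.3.3, numpy 2.4.6, scipy 1.17.1 and statsmodels 0.14.6 (loess) were used.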

Additional observations from a re-analysis of the deposited data

How the results depend on the processing

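With 1 array per diet, a value counted as moved when it changed by more than 1.5-fold. The number of the 6 genes with a ratio above 0 was 1 relative to the shift, 0 as deposited, 0 with a floor at the 40th percentile, 2 with a floor at the 10th percentile and 4 with no floor. It stayed at 1 under the other scalings (median, 2% trimmed mean, quantile, loess) and a shift from all probe sets. The log2 ratio of Lyz1 turned to -0.23 as deposited, because no shift is taken off there. With the bar of background lowered from the median to the 25th percentile, the number that reached it went from 0 to 2 genes on the chow array and from 0 to 1 on the glucose array. At the 40th and 75th percentiles it was 0 on both. With the bacterial probe sets as the bar it was 0 on the chow array and 4 on the glucose array, where that bar lay under the 10th percentile. The share of all listed probe sets at this bar was not counted. All 6 genes had an SLR of at least 0.6, 1 had one of at least 1, and by relative log2 ratio 1 of the 2 genes with a signal above the floor was higher. The median SLR of the enterocyte list turned to -0.3 without probe sets shared between transcripts, which leaves 7 genes. The Paneth cell median was 0.7 without Habp2 and Pnliprp2, an alternative added after seeing the data. No paired analysis was possible because each diet has 1 array. Signals under the array's 25th percentile limit what the ratios of Mmp7, Itln1, Spink4 and Guca2a can show.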

Other observations

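Among the listed genes of rarer epithelial cells, Trpm5, the taste-signalling channel of tuft cells, was the only one of 8 tuft cell genes listed, at an SLR of 2.0 (authors' deposited table). Its signals were 5.2 (chow) and 9.6 (glucose), a relative log2 ratio of 1.86. The chow signal lay under the array median of 13.0 and under the 5.6 of the bacterial probe set. Of 14 enteroendocrine genes 2 were listed, the neurotensin gene Nts at 0.5 and Chgb, a granule protein, at -0.3 in the authors' deposited table.

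The defensin symbol Defcr-rs10, at 1.0 by SLR in the authors' deposited table, had signals of 7.4 (chow) and 12.9 (glucose), a relative log2 ratio of 1.77. Its chow signal lay under the median of that array, and its glucose signal lay above the glucose array's median of 7.9. Defcr12 stood at 0.7 in the authors' deposited table, while its signals were 5.2 and 0.1, and its relative log2 ratio is known only to be at most 0.13.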
